A study of Mus musculus with 2 samples.

Results

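The abundant small RNA tags of 28 to 32 nt in J1 mESCs were described in DMSO-treated and PD-treated cells. A tag is a distinct sequence with the number of reads that carried it. Tags of these lengths with at least 1000 reads summed over both libraries were taken as members. They numbered 397 of 1695245 distinct tags in the series and of 254591 tags of 28 to 32 nt. Tags that shared their first 18 bases were merged into 1 source, which gave 243 sources, numbered here by abundance. The leading tag of a source is its most frequent tag. Of the 243 sources, 152 held 1 member tag, and source 38 held the most, 8. The read sum and the length chose the members, so both are descriptions here, and the ratio of PD to DMSO is given for members chosen on the sum of the same reads.

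J1 is an established mouse ESC line, grown here without feeders on gelatin in medium with knockout serum replacement and 1000 U/mL of LIF, which supports self-renewal. Cells of both groups received this medium, and for 24 h either 1 μM PD0325901 (PD), a small molecule that inhibits the kinase MEK upstream of ERK1/2, or an equal volume of DMSO. For each treatment the RNA from 3 experiments was combined into 1 pool before sequencing, which gave 1 small RNA library. Depth was 18870345 clean reads in DMSO and 20944808 in PD. Differences between cultures, RNA pools and libraries therefore cannot be told apart from the treatment, and no p-value is given. Values are reads per 1000000 clean reads (RPM), and ratios are RPM in PD divided by RPM in DMSO. The 95% intervals of ratios are exact (Clopper-Pearson) and those of shares are Wilson intervals, and both cover counting error only. The methods of the study state that RNA of 18 to 30 nt was cut from a gel, so that tags of 31 and 32 nt lie past the stated upper end.

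Small RNA libraries hold, beside miRNAs, pieces of longer noncoding RNAs. A tRNA can be cut in or near its anticodon loop, which leaves a 5′ tRNA fragment that starts at the first base of the mature tRNA. Ribosomal RNAs, Y RNAs and small nucleolar RNAs (snoRNAs), which guide modification of other RNAs, also leave fragments of this size. Germline piRNAs are of similar length and often start with U or carry A at base 10. tRNAs fold into a cloverleaf with conserved bases, among them U at base 8, A at base 14 and G G in the D loop, and they carry many chemically modified bases.

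Of the 243 leading tags, 40 held all 4 features looked for at a tRNA 5′ end. These were T at base 8, A at base 14, G G within bases 17 to 21, and at least 3 of 4 pairs between bases 10 to 13 and 4 bases that start between bases 21 and 26. This is 16.5% of sources, beside 11.0% of 9263 other tags of 28 to 32 nt with at least 10 reads and 0.667% of 7942898 windows of 30 bases in annotated transcripts. The other tags were not merged, so the units differ. When sources were also merged over a 1-base difference, 33 of 233 held the features. Of the 22 mitochondrial tRNAs, 1 held the 4 features in its first 30 bases. Of the 40, source 16 matched 18S rRNA sequence, and the other 39 are called tRNA-like below, a name that rests on these features alone. Of these, source 34 lies in an overlapping set of 4 sources that begin at different bases. A tRNA origin is therefore not shown for source 34, which stays in the counts by its features. Of the 5 most abundant tRNA-like sources 4, and both further sources that matched an annotated nuclear tRNA gene are shown, 5′ to 3′, with the conserved T, A and G G in capitals.
source 9: ggctcgtTggtctAggGGtatgattctc
source 10: gcgttggTggtatAgtGGtgagcatagct
source 20: gtttccgTagtgtAgtGGttatcacgttc
source 24: tcccacaTggtctAgcGGttaggattcct
source 38: gggggtgTagctcAgtGGtagagcgcgtg
source 173: gcgccgcTggtgtAgtGGtatcatgcaa

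The leading tags of sources 20, 38 and 173 each matched a RefSeq tRNA gene of GRCm38 without a mismatch, and each began at base 1 of that gene. Source 20 matched n-TVcac9, a valine tRNA gene, at chr13:23446186-23446214 on the minus strand. Source 38 matched n-TAagc16, an alanine tRNA gene, at chr13:21222586-21222614 on the plus strand. Source 173 matched n-TGccc7, a glycine tRNA gene, at chr17:25875088-25875115 on the plus strand, which lies inside an annotated transcript of Mettl26. Sequence was at hand for few nuclear tRNA genes, so the other 36 tRNA-like sources were not tied to a gene, and anticodons were not read.

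Most of the other abundant sources came in sets of overlapping sequences. The 243 leading tags fell into 124 sets when any shared run of 22 bases joined them, and 72 sources stood alone. The largest set held 11 sources that began at 11 consecutive bases and shared 21 bases, shown in capitals for 7 of them in the order of their starts.
source 145: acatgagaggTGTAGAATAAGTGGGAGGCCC
source 35: catgagaggTGTAGAATAAGTGGGAGGCCC
source 12: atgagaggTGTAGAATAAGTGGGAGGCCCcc
source 15: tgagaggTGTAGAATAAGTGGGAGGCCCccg
source 4: agaggTGTAGAATAAGTGGGAGGCCCccg
source 2: aggTGTAGAATAAGTGGGAGGCCCccggcg
source 124: TGTAGAATAAGTGGGAGGCCCccggcgc

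Further sources among the 10 most abundant are shown with the first and last base of the leading tag in capitals. Sources 3 and 5 belong to 1 overlapping set of 6 sources and begin 1 base apart. Sources 3, 5 and 8 matched no annotated transcript.
source 3: GtggggagtttgactggggcggtacaccT
source 5: TggggagtttgactggggcggtacacctG
source 8: TcctcgcgtcggggtcggggcacgccgG

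The member tags together held a larger share of the PD library than of the DMSO library. They took 1045716 reads in DMSO, 5.54% (5.53 to 5.55) of clean reads, and 2847679 reads in PD, 13.6% (13.58 to 13.61), a ratio of 2.45 (2.45 to 2.46). The 254194 less abundant tags of the same lengths took 1.57% and 3.36%, a ratio of 2.14 (2.13 to 2.15). The ratio of all tags of 18 to 27 nt was 0.893. The 10 most abundant sources held 45.9% of the member reads in DMSO and 55.4% in PD.

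The ratio of the member tags was higher at each further base of length. At 28 nt the 172 member tags took 3.03% of clean reads in DMSO and 5.00% in PD, a ratio of 1.65. At 29 nt 136 tags gave 1.80% and 4.48%, a ratio of 2.48. At 30 nt 62 tags gave 0.629% and 3.03%, a ratio of 4.81. The 23 tags of 31 nt gave 0.0707% and 0.862%, and the 4 tags of 32 nt gave 0.0107% and 0.235%, ratios of 12.2 and 21.9. Less abundant tags showed the same order, from 1.43 at 28 nt through 2.07, 3.64 and 5.12 to 6.28 at 32 nt. Among all tags of the libraries, the ratio was 1.08 at 18 nt, 0.763 at 21 nt, 1.11 at 26 nt, 11.6 at 32 nt and 9.50 at 33 nt. From 21 to 32 nt the ratio was thus higher at each further base, and the part of the gel cut and of the RNA pools in this was not tested.

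Within a source the start is fixed, so that length gives the position of the 3′ end counted from the first base. Of 130 pairs of member tags of 1 source that differed by 1 base in length, the longer tag had the higher ratio in 120, with a median step of 1.76-fold. The median step was 1.42-fold from 28 to 29 nt (63 of 70 pairs), 2.16-fold from 29 to 30 nt (38 of 39 pairs) and 2.71-fold from 30 to 31 nt (15 of 17 pairs). Where a source held several member tags of 1 length, the most abundant was used. The mean end lay further 3′ in PD than in DMSO for 87 of the 91 sources with several member tags, by a median of 0.13 nt over a range of -0.14 to 1.26 nt. The part of the gel cut and of the RNA pools in this shift was not tested either. With every 28 to 32 nt tag of a source, whatever its count, the mean end lay further 3′ in 232 of 243 sources, by a median of 0.13 nt. Over all member reads the mean length was 28.60 nt in DMSO and 29.03 nt in PD, and tags of 30 to 32 nt held 12.8% and 30.3% of member reads.

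Shorter tags with the same first 18 bases did not share this difference. Summed over the 243 sources, tags of 18 to 24 nt took 21.3% of clean reads in DMSO and 16.98% in PD, a ratio of 0.796. Tags of 25 to 27 nt gave a ratio of 1.08, and tags of any length together gave 37.8% and 42.7%, a ratio of 1.13 (1.13 to 1.13). Among 237 sources with at least 100 reads of tags under 28 nt, these shorter tags had a lower ratio than the member tags in 230, and a ratio under 1 in 165. Summed over the 243 sources, the 28 to 32 nt members were therefore a minor share of the reads with the same first 18 bases. This did not hold for the tRNA-like sources in PD. There, tags of 28 to 32 nt took 3.58% of clean reads, and tags of any length 6.10%. In DMSO these shares were 1.11% and 4.17%. The ratio of the members was highest in their longest tags. In percentage points of clean reads the difference was largest at 29 nt, where the shares were 1.80% and 4.48%.

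The ratio was 1.5 or more for 156 of the 243 sources, which is 64.2%, and 1/1.5 or less for 2, which is 0.823%. Of the 397 member tags, 272 (68.5%) were higher and 3 (0.756%) lower by this size. As background, 8.16% of 3457 tags of 18 to 27 nt with at least 1000 reads were higher and 23.1% lower, and 14.4% and 20.8% of the 3854 such tags of any length. Merged in the same way, 8.77% of 1448 sources of 18 to 27 nt were higher and 17.1% lower. The median ratio was 1.91 over the member tags and 0.859 over the abundant tags of 18 to 27 nt. The ratio of a source was above 1 in 224 of 243, and its counting interval lay wholly above 1 in 216 and wholly below 1 in 11. Set against all reads of the same length instead of all clean reads, 44 sources were higher and 54 lower. Against the clean reads of 28 to 32 nt, 40 were higher and 91 lower. The members are part of both denominators, which draws their ratios toward 1. Of the 28 to 32 nt reads they held 1045716 of 1341817 in DMSO and 2847679 of 3551361 in PD. With TMM factors of edgeR 176 sources were higher and 2 lower, and with DESeq2 size factors 185 and 1. Against reads of 20 to 24 nt these were 200 and 1. The excess of higher over lower sources thus depended on the denominator.

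The 39 tRNA-like sources, with 73 member tags, were higher in PD as a group. They took 1.06% of clean reads in DMSO and 3.40% in PD, a ratio of 3.22 (3.21 to 3.24). A large part of these reads lay in 1 source, so the pooled ratio leans on it. The ratios of the 39 sources ran from 1.44 to 16.5 with a median of 2.48, and 37 of 39 were 1.5 or more, beside 64.2% of all sources. The 41 sources in 18S rRNA sequence had a median of 1.44, with 20 higher and 1 lower, and the other 163 sources a median of 1.72, with 99 higher and 1 lower. At a leading length of 28 or 29 nt the tRNA-like sources also had the highest median, while at 30 nt the order of 18S and other sources was the reverse. Among sources with a leading tag of 28 nt the medians were 1.96 for 13 tRNA-like, 1.42 for 26 of 18S and 1.47 for 90 other sources. At 29 nt they were 3.31 for 23, 1.39 for 9 and 1.95 for 40 sources. At 30 nt they were 10.04 for 2, 5.35 for 6 and 2.50 for 24 sources. Relative to reads of the same length, 14 tRNA-like sources were higher by 1.5 and 0 lower, with a median of 1.30, and the other 163 sources had 25 higher and 42 lower, with a median of 0.837. Sources that differ from a larger one by 1 base share its origin in part, so the 39 are not independent.

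Source 10 had the highest ratio among the 10 most abundant sources, 5.86 (5.75 to 5.98), from 11799 reads in DMSO and 76762 in PD. Its 29 nt tag had 11638 and 61614 reads, and its 30 nt tag had 161 and 15148, a ratio of 84.8 (72.6 to 99.6). Source 9 had the lowest, 1.77 (1.74 to 1.79), from 36423 and 71359 reads. Its 28 nt tag held 35019 and 64447 of these, and the 30 nt tag, with 17 and 1276 reads, had a ratio of 67.6 (42.1 to 116). The leading tag of source 20, which matched n-TVcac9, had 3764 and 15117 reads, a ratio of 3.62 (3.49 to 3.75). Source 20 as a whole had 8152 and 30415 reads, a ratio of 3.36 (3.28 to 3.45), but its other tags differ from the leading tag after base 18. The leading tag of source 38, which matched n-TAagc16, had 1234 and 3570 reads, a ratio of 2.61 (2.44 to 2.78). Source 38 as a whole, with several tags of another sequence after base 18, had 5837 and 13797 reads, a ratio of 2.13 (2.07 to 2.20). Source 173, 1 tag that matched n-TGccc7, had 613 and 999 reads, a ratio of 1.47 (1.33 to 1.63), under the 1.5 used here.

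Many tRNA-like sources were 1-base variants of a more abundant one. Of the 39, 15 differed from a larger source by 1 base, 8 of them at base 9 and 6 at base 6, counted from the first base of the tag, with source 150 counted at both. Over all tags of at least 28 nt, the reads that differed from the leading tag were counted at each of its first 28 bases. Source 9 differed at base 9 in 16.6% and 19.5% of reads and at base 6 in 16.5% and 19.2%. Source 10 differed at base 6 in 6.19% and 6.54% and at base 9 in 1.58% and 1.14%, and source 24 at base 6 in 28.4% and 29.3% and at base 9 in 10.03% and 10.7%. Other tRNA-like sources differed most at other bases. Source 20 did so at base 26, in 14.6% and 13.98%, and source 38 at base 25, in 44.1% and 38.6%. For source 47 it was base 5, in 13.4% and 14.3%. In sources 2, 3, 4, 5 and 8, which are not tRNA-like, the highest value at any base lay between 0.0955% and 1.06% over both libraries, the latter at base 28 of source 4. The groups overlapped in this measure. Source 13, which is not tRNA-like, reached 1.55% at base 28, while the tRNA-like source 34 had at most 0.241% and 0.428%. In sources 9, 10 and 24 the share of variant reads at bases 6 and 9 was of similar size in both libraries. The origin of the variant reads was not tested.

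The 11 overlapping sources around source 2 had 213585 reads in DMSO and 598883 in PD, a ratio of 2.53. Their starts are counted from the first base of source 145. At 28 nt the ratio of the main tag of each start lay between 1.42 and 2.21 for the 8 starts with a member tag of that length. At 30 nt it was 83.2 for start 2 (source 35), 7.60 for start 3 (source 12), 3.24 for start 4, 3.11 for start 5, 3.42 for start 6 and 3.61 for start 8. At 31 nt it was 43.5 for start 1, 223 for start 2 and 20.6 for start 3, 8.59 for start 4, and between 20.2 and 73.6 for starts 5 to 8. Starts 1 and 2 had few reads in the DMSO library, as did the 31 nt tags of starts 5 to 8. These tags became members through their PD reads. Source 35 had 174 reads in DMSO and 20201 in PD, a ratio of 105 (90.1 to 122), and source 145 had 45 and 2173, a ratio of 43.5 (32.4 to 59.8). Source 2, with the start at base 8, had 90228 and 243321 reads, a ratio of 2.43 (2.41 to 2.45), and its most frequent member length was 28 nt in DMSO and 30 nt in PD. Source 4 had 75778 and 163813 reads, a ratio of 1.95 (1.93 to 1.96). Tags of 18 to 23 nt that began like source 2 had ratios from 0.215 to 0.405, and its 24 nt tags, with 781511 and 820206 reads, 0.946.

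In the set of sources 3 and 5, the tags of 30 and 31 nt had far higher ratios than the shorter ones. Source 3 had 34835 reads in DMSO and 221195 in PD, a ratio of 5.72 (5.66 to 5.79). Its 29 nt tag had 27915 and 103029 reads, a ratio of 3.33, and its 30 nt tag had 1717 and 104620, a ratio of 54.9. Source 5, which begins 1 base later, had 50093 and 166597 reads, a ratio of 2.996 (2.97 to 3.03). Its 30 nt tag had 1271 and 40035 reads, a ratio of 28.4. At 31 nt source 3 had 102 and 1876 reads, a ratio of 16.6, below its 30 nt tag, while source 5 had 12 and 1171 reads, a ratio of 87.9 (50.1 to 171), above its 30 nt tag. Source 8, with 1 tag of 28 nt, had 40538 and 81244 reads, a ratio of 1.81 (1.78 to 1.83).

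The 41 sources in 18S rRNA sequence matched Rn18s-rs5, an 18S related pseudogene of 1849 bases at chr17:39846354-39848202 of GRCm38, all on the plus strand. The rRNA genes themselves were not at hand, so the match names the kind of RNA and not the gene. The sources fell into 12 stretches that covered 26.7% of these bases, or 494 bases. The stretch at bases 860 to 946 held 8 sources with 37149 and 53333 reads, a ratio of 1.29. The stretch at bases 504 to 532, with 2 sources, had 4399 and 3926 reads, a ratio of 0.804, and was the only one of the 12 under 1. The overlapping sources 64, 82, 156, 205 and 227, with a ratio of 0.842 together, matched Gm42418, a transcript that 18S sources also match, only with 1 mismatch and are counted among the other sources.

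Matches to other annotated small RNAs were few, 8 sources in all. Source 11 began at base 1 of Gm23212, a snoRNA gene at chr1:161036682-161036709 on the plus strand for the matched part. It had 34249 reads in DMSO and 53428 in PD, a ratio of 1.41 (1.39 to 1.42). Source 199 matched the snoRNA Snord69 from base 7, with 598 and 750 reads, a ratio of 1.13 (1.01 to 1.26). Both hold TGATGA, the core of the box C of this class of snoRNA, and further on CTGA, the letters of box D, both in capitals. Source 11 covers only the first 28 bases of its gene, so its CTGA lies inside the gene and is named by its letters only. The CTGA of source 199 was not placed against the end of Snord69, so it too is named by its letters only.
source 11: cctgcaTGATGAcgaacaaataCTGAct
source 199: aagcagTGATGAcagattggatCTGAct

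Read on the strand of the tag, TGATGA stood in 1.23% of the 243 sources and in 1.71% of the less abundant tags of 28 to 32 nt, and CTGA in 9.47% and 16.4%. Source 215 matched the last bases of Rnu3a, a U3 snoRNA, with 516 and 693 reads, a ratio of 1.21 (1.08 to 1.36). Source 200, whose match was shared by 3 annotated snoRNA genes, matched the last bases of Gm22192. It had 443 and 891 reads, a ratio of 1.81 (1.62 to 2.04).

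Sources 25 and 100 matched Rny1, the Y1 RNA, a component of Ro ribonucleoprotein particles, on the minus strand of chromosome 6. Source 25 began at base 1 of the gene and ran from 47788180 down to 47788151, and source 100 began at base 83.
source 25: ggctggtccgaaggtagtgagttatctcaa
source 100: cttctcactactgcacttgactagtctt

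Source 25 had 12098 reads in DMSO and 16938 in PD, a ratio of 1.26 (1.23 to 1.29). Its ratio was 0.909 (0.837 to 0.987) at 29 nt, 1.32 (1.28 to 1.35) at 30 nt and 1.23 (1.17 to 1.30) at 31 nt. These ratios were low for the length, beside medians of 3.57 and 20.6 for the member tags of 30 and 31 nt. Tags of 31 nt with few DMSO reads became members through their PD reads, which raises the median at that length. Over all tags the ratio was 4.53 at 30 nt and 8.73 at 31 nt. Its tags of 32 nt, none of them a member, had 27 and 392 reads, a ratio of 13.1 (8.85 to 20.1). Source 100 had 1577 and 2624 reads, a ratio of 1.499 (1.41 to 1.60). All its tags of 30 nt together had 116 and 328 reads, a ratio of 2.55 (2.06 to 3.18). A 5S rRNA match, source 198, shared by 43 annotated genes, had 409 and 967 reads, a ratio of 2.13 (1.90 to 2.40). An snRNA match, source 208, shared by 159 annotated genes, had 217 and 1059 reads, a ratio of 4.40 (3.80 to 5.11).

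In all, the leading tags of 43 sources matched an annotated transcript in sense and without a mismatch, and 192 matched none in either direction. These 192 sources, which include the tRNA gene matches of sources 20 and 38, held 853257 reads in DMSO and 2503320 in PD, a ratio of 2.64.

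The 5 highest ratios of a source belonged to sources 152, 35, 239, 145 and 216, all with leading tags of 30 or 31 nt. Sources 35 and 145 are shown above. With few DMSO reads, the tags of all 5 became members through their PD reads. High ratios were therefore favored by the choice of members. Source 152 had 14 reads in DMSO and 1925 in PD, a ratio of 124 (73.7 to 227), from 1 member tag of 31 nt. Other tags with its first 18 bases had 392 and 428 reads at 28 nt, a ratio of 0.984. At 27 nt such tags had 6730 and 6760 reads, a ratio of 0.905. Source 239, in 18S rRNA sequence, had 19 and 1017 reads, a ratio of 48.2 (30.7 to 80.4), and source 216 had 39 and 1164 reads, a ratio of 26.9 (19.6 to 38.0).
source 152: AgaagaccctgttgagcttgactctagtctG
source 239: CtgaaacttaaaggaattgacggaagggcA
source 216: AcaggattgttttctgaattgtacaggagA

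Each of these overlapped another source with a near start and a lower ratio, named here after their values were seen. Source 88, whose leading tag is 28 nt long and overlaps source 152, had a ratio of 1.05. Source 225, which overlaps source 239, had a ratio of 1.73, and source 46, which overlaps source 216, had a ratio of 2.30.

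The 5 lowest ratios belonged to sources 156, 135, 64, 242 and 209. Source 156 had 1192 reads in DMSO and 727 in PD, a ratio of 0.549 (0.5004 to 0.603). Source 135, in 18S rRNA sequence, had 1565 and 1053 reads, a ratio of 0.606 (0.560 to 0.656). These were the 2 sources lower by 1.5 or more. Source 64 overlaps source 156 and had 4561 and 3513 reads, a ratio of 0.694 (0.664 to 0.725).
source 156: AgaacgaaagtcggaggttcgaagacgA
source 135: AagtaaaagtcgtaacaaggtttccgtA
source 64: AagaacgaaagtcggaggttcgaagacG
source 242: AgtggtagagcatttgactgcagatcaA
source 209: CtgggtcggtcgggctggggcgcgaagcgG

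Source 242 had 571 and 455 reads, a ratio of 0.718 (0.633 to 0.813), and source 209, at 30 nt, had 662 and 585 reads, a ratio of 0.796 (0.711 to 0.891). Source 209 was the 1 member of 30 nt with a ratio under 1. An overlapping set of 7 sources led by source 45, chosen after its values were seen, also had low ratios at all lengths. Its 18 member tags lay between 0.927 and 2.04, and its tags of 31 nt between 1.39 and 1.83. The median of the 23 member tags of 31 nt, some of them members only through PD reads, was 20.6. The ratio of all tags of 31 nt was 8.73.

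The first base of the leading tag was G in 76 sources, A in 66, C in 65 and T in 36. The median ratios by first base were 1.90, 1.84, 1.57 and 2.23 in this order. Among the tRNA-like sources 26 of 39 began with G and 8 with T, and in the 18S sources 16 of 41 began with C and 2 with T. The last base was G in 118 of 243 sources, T in 45, A in 41 and C in 39. Of the piRNA features, T at base 1 stood in 14.8% of sources, beside 23.2% of the less abundant tags of the same lengths, but in 30.1% of source reads beside 21.7%. Sources that began with T held 271002 reads in DMSO and 902296 in PD. The 8 tRNA-like ones among them held 96547 and 400523 of these. A at base 10 stood in 26.3% of sources, beside 28.1%. Both together stood in 3 sources, 1.23%, beside 6.49%.

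The limit of 1000 reads did not fall at a gap. The 3 tags just inside it had 1001, 1015 and 1020 reads and ratios of 3.48, 2.03 and 4.20. The 3 just outside had 998, 997 and 995 reads and ratios of 0.855, 2.23 and 2.08.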

How the data were processed

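Small RNA of J1 mESCs was measured in 1 DMSO library and 1 PD library. The authors screened the raw reads for quality, adapters, contaminants and a length of at least 18 nt. They then listed each remaining distinct sequence once, and the deposited tables give its length and its raw read count. The deposited counts are not aligned, annotated or normalized. The submitters' processing notes list the genome build mm9, and no coordinate of that build is used here. The last line of each table is a total of no tag. It equaled the sum of the tags and was left out. Depth was 18870345 clean reads for DMSO and 20944808 for PD.

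RPM of the clean reads, ratios and intervals were computed with Python 3.11.15, numpy 2.4.6, pandas 2.3.3 and SciPy 1.17.1, and were tested on simulated data. With 1 library per treatment the tests of edgeR and DESeq2 could not be fitted, and a ratio of 1.5 or more either way is a size, not a test. Leading tags were matched to GENCODE M21 transcripts and RefSeq tables of GRCm38. The members, the tRNA features and the lists were chosen with earlier results of these data known. Sources named are the 10 most abundant, the 5 highest and the 5 lowest ratios, and those that match a small RNA class. Some sources that this rule selects, and their variants, are not reported here. Sources named outside this rule are the examples of tRNA-like sources, 1-base variants and overlapping sets. Alternatives were other denominators (with factors of edgeR 4.0.16 and DESeq2 1.42.0 in R 4.3.3), read minimums, ways of merging and matching, and a 2-fold limit.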

Additional observations from a re-analysis of the deposited data

Results flagged for a closer look

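Tags longer than those described, of 33 to 44 nt, had 14014 reads in the PD library and 1566 in the DMSO library, a ratio of 8.06 (7.65 to 8.50). Most of these reads were of 33 and 34 nt, with ratios of 9.50 and 13.4. The ratio was 1.03 at 38 nt and under 1 at each length from 39 to 44 nt, where reads were few. Tags of 33 to 44 nt were set apart because they lie outside the lengths used in the report and together exceed the control.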

How the results depend on the processing

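No paired analysis was possible because each treatment has 1 library, and none could be left out. Against 156 sources higher and 2 lower, DESeq2 size factors and the 20 to 24 nt denominator each left 1 lower, as for tags (1 beside 3). With the 28 to 32 nt denominator 40 sources were higher and 91 lower, and 86 and 137 tags. With reads of the same length, chosen after seeing the data, these were 44 and 54 sources and 85 and 95 tags. A minimum of 500 reads gave 254 and 4 sources of 385, and 440 and 6 tags. A minimum of 5000 gave 56 and 0 sources of 74, and 86 and 0 tags. Tags of any length gave 74 and 7 sources, merging over a shared run of 22 bases 81 and 1 of 124 sets, and the 2-fold limit 0 lower for sources and tags. The ratio of the shares, 2.45, was 2.33 without the most abundant source, 2.14 without the 5 most abundant, 2.98 with and 2.31 without the tRNA features. It was 2.60 with TMM, 2.72 with DESeq2 size factors, 2.97 for 20 to 24 nt, 1.03 for 28 to 32 nt, 2.44 for 500 and 2.56 for 5000 reads. Of the values added after seeing the data, it was 1.13 for tags of any length and 1.06 for reads of the same length. The count of 40 sources with the tRNA features was 61 for 3 of 4 features, 4 and 7 with the first base shifted by 1 and -1, and 19 at 5000 reads. The median shift of the mean end, 0.13 nt, was 0.64 nt over tags of any length. The other alternatives gave counts within 1.5 times the reported ones. No ratio of the shares changed direction.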
